A study of Mus musculus with 6 samples.

Results

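The islands described here are stretches of H3K9me3 enrichment at the ends of mouse chromosomes that lie next to the centromere. They were taken by position: every island on chromosomes 1 to 19 except chromosome 7 whose midpoint lay below 8.0 Mb in the mm9 genome build. The 4 libraries held 298 such islands, and joining those that overlapped gave 137 regions out of 5840 in the whole series. The same 18 chromosomes beyond 8.0 Mb held 5246 joined regions, which serve as the comparison for density, coverage, score and overlap and are called the distal part. The ends next to the centromere are called the proximal part.

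The mouse chromosomes numbered 1 to 19 carry their centromere at one end, embedded in long arrays of satellite repeats. Trimethylation of histone H3 at lysine 9 (H3K9me3) marks constitutive heterochromatin, and in mouse cells it is best known for its density on these pericentromeric repeats, where it is read by heterochromatin protein 1. Most of the satellite arrays are missing from the genome assembly, which opens each chromosome with a placeholder of 3.0 Mb. The proximal islands lie in the assembled sequence that follows, and whether they hold copies of satellite repeats was not tested. No island started before position 2999801, and no member crossed the 8.0 Mb limit. Just inside the limit lay chr18:7980601-7986400, which scored 77.7 in control 2, 94.7 in mutant 1 and 106.1 in mutant 2 and had no island in control 1. Just outside it lay chr2:8004601-8008600, called in control 2 alone with a score of 103.5.

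H3K9me3 was measured in sorted cells of 4 mice, presumed to be Lmnb1+/- in the 2 controls and Lmnb1-/- in the 2 mutants. The method was FARP-ChIP-seq, a chromatin immunoprecipitation that adds carrier DNA so that few cells suffice. All 4 mice carried K5Cre, a Cre recombinase driven by the keratin 5 promoter in horizontal basal stem cells of the olfactory epithelium, a floxed Lmnb1 allele (1 copy in controls, 2 in mutants) and the R26 Ai9 Tomato reporter. All received methimazole, which damages the epithelium, in 2 injections of 50 mg/kg each. Some 500000 cells with Tomato fluorescence were collected per animal after 4 weeks of regeneration. The study reports that a small minority of such cells in mutant tissue still stained for lamin B1. The strain background was mixed. Each control had a mutant littermate given methimazole in the same treatment group (group 3 for replicate 1, group 4 for replicate 2), and 1 H3K4me3 library came from each mouse of replicate 1. The sorted cells were a mixture of stem cells, progenitors, supporting cells and neurons, and the controls were heterozygous and not wild type. The animals' ages were not given in the labels, and the study states 2 to 3 months at injection. These files hold no RNA, so neither the loss of lamin B1 nor the cell types could be checked in them.

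Each value is a SICER score, which adds over the 200 bp windows of an island how improbable their read numbers are at the average depth of that library. A score rises with enrichment, with island length and with depth. Average depth, worked out from the scores themselves, was 1.41 (control 1), 2.54 (control 2), 1.43 (mutant 1) and 2.18 (mutant 2) reads per window, and these libraries held 2038, 5658, 2905 and 1964 islands. Where 4 values follow each other, they are given for control 1, control 2, mutant 1 and mutant 2, in that order. Control 2 stood apart, with the most reads and the most islands, and results that rest on it are given with and without it.

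The proximal part yielded 54 and 129 islands in the controls and 70 and 45 in the mutants, over 90.0 Mb. The 137 joined regions spanned 1.05 Mb in all. They were 1.0 to 73.2 kb long with a median of 6.0 kb, against a median of 7.0 kb in the distal part. Of the 137 regions, 63 (46.0%) were called in 1 library, 29 (21.2%) in 2, 16 (11.7%) in 3 and 29 (21.2%) in all 4. The distal shares were 53.0%, 18.2%, 12.0% and 16.8%. Control 2 alone supplied 53 of the 63 regions seen once, or 84.1%, and the corresponding distal share was 81.4%.

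**Figure D1:**
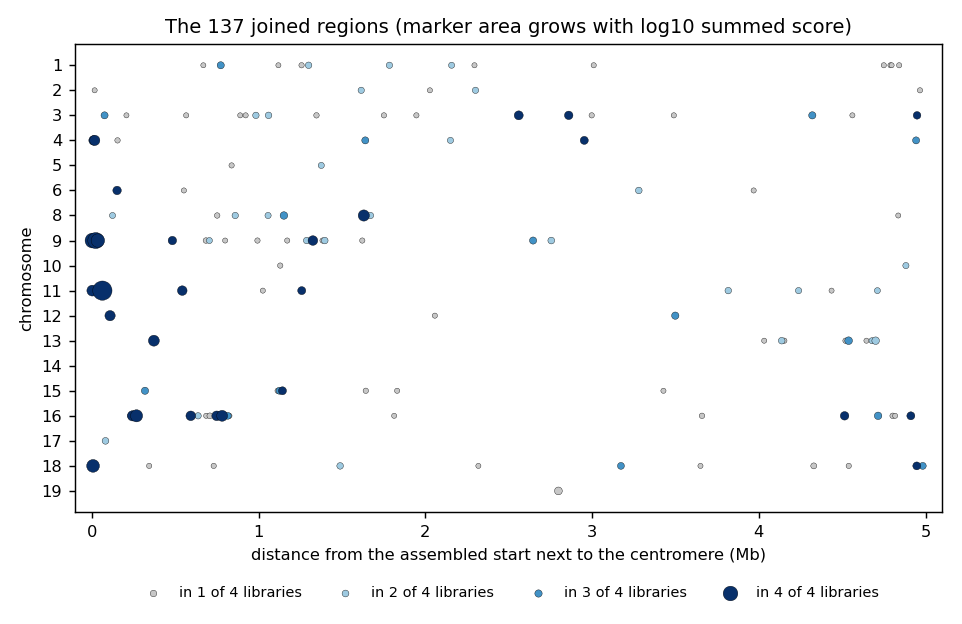
Position of each of the 137 joined regions along its chromosome, as distance in Mb from the assembled start beside the centromere (horizontal axis), with 1 row for each of 18 chromosomes. Colour gives the number of libraries with an island and marker area grows with the log10 summed score. The largest markers are the regions of chromosomes 11 and 9 at the far left, and the row of chromosome 14 is empty.

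A few regions beside the assembled start held most of the proximal H3K9me3 score. The longest and highest was chr11:3027001-3100200, 73.2 kb, whose scores were 41057 and 81104 in controls 1 and 2 and 54293 and 43864 in mutants 1 and 2. In each library no island of the distal part scored as high, the highest there being 11966, 19990, 17855 and 14882. This single region held 62.5%, 69.8%, 65.5% and 60.0% of the proximal score in the same order of libraries. Control 2 was high and the rest lay closer together, so the genotypes overlapped.

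The 3 neighbouring regions of chromosome 9 came next. The first, chr9:2999801-3008600, scored 4068 and 3920 in the controls and 4088 and 6531 in the mutants. The second, chr9:3015201-3032800, scored 8201 and 8138 in the controls and 8437 and 11260 in the mutants. Mutant 2 was highest in both, while mutant 1 lay within 5% of the controls. The third, chr9:3034001-3039000, scored 2225, 2077, 2245 and 2357, again highest in mutant 2 but by little. Together these regions held 22.1% (control 1), 12.2% (control 2), 17.8% (mutant 1) and 27.6% (mutant 2) of the proximal score. With the chromosome 11 region they came to 82.0% to 87.6% of the score, on 13.1% to 28.0% of the covered bases.

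Scaled by depth the order of the libraries changed. The reads per window that would give each region's mean score, divided by the library average, put the chromosome 11 region at 31.3-fold and 33.8-fold in controls 1 and 2 and at 38.1-fold and 24.1-fold in mutants 1 and 2. For chr9:3015201-3032800 the folds were 28.3, 18.1, 27.6 and 26.1. On this scale the chromosome 11 region was highest in mutant 1 and lowest in mutant 2, whereas by score it was highest in control 2 and lowest in control 1. The chromosome 9 region was highest in mutant 2 by score and in control 1 by fold, and lowest in control 2 on both scales. These folds are estimates from scores and not ratios of counted reads.

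The next members by their lowest score in any library were weaker. The region chr18:3003801-3011400 scored 1303, 1980, 1737 and 1191. The region chr16:3251801-3285000, at 33.2 kb the second longest member, scored 947, 1477, 1029 and 973. Control 2 was highest in both, mutant 1 lay between the controls in both, and mutant 2 lay below both controls in the first and between them in the second. The 10 regions of highest lowest score also included chr8:4621401-4641600 (520 to 998), chr13:3370801-3374000 (513 to 672), chr16:3238401-3250400 (355 to 482) and chr16:3770601-3793000 (346 to 816). Only 6 of the 137 members passed a score of 1000 in any library.

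Some short regions were strong for their length. The 1.2 kb region chr12:3109001-3110200 scored 339 and 330 in the controls and 363 and 623 in the mutants. The 1.0 kb region chr6:3151201-3152200, the shortest member, scored 120, 153, 94.9 and 273 in the same order. Mutant 2 was highest in both, whereas mutant 1 lay above both controls in the first and below both in the second. The 2.4 kb region chr4:3016401-3018800 scored 303 to 605, with control 2 highest. These were the highest-scoring regions of their chromosomes.

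On the remaining chromosomes the highest-scoring region was weak or was called in few libraries. It was called in all 4 libraries on chromosome 3 (chr3:5553401-5567600, 145 to 267) and chromosome 15 (chr15:4140001-4147400, 93.6 to 161), and in 3 on chromosome 1 (chr1:3769001-3777800, up to 121). On chromosomes 2 (chr2:5300201-5302200), 5 (chr5:4374801-4378000), 10 (chr10:7878601-7886400) and 17 (chr17:3081401-3083000) it was called in 2 libraries, 1 of each genotype, with no score above 157. Chromosome 19 had a single proximal region, chr19:5794201-5802800, with a score of 442 in mutant 2 and no island in the other libraries. Chromosome 14 had none. Besides those already given, the 5 longest members included chr13:7689001-7713000 (24.0 kb), called in control 2 (195) and mutant 1 (190), and chr16:3581801-3605400 (23.6 kb), which scored 333, 449, 301 and 89.8.

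**Figure D2:**
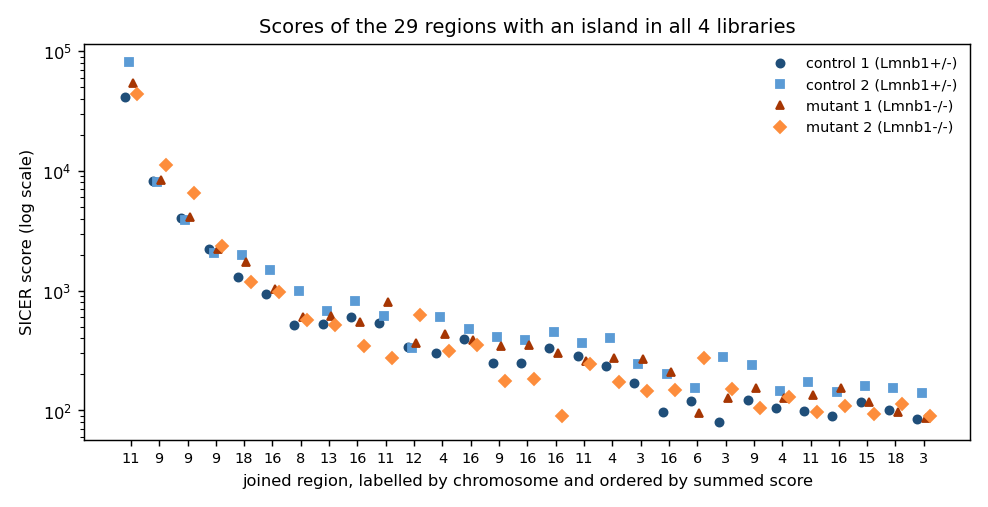
SICER score (log axis) of the 29 regions with an island in all 4 libraries, ordered by summed score and labelled by chromosome, with 1 point for each library. The first 4 regions, on chromosomes 11 and 9, stand above the rest, and control 2 is the highest point in 20 of the 29 regions.

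Among the 29 regions with an island in all 4 libraries the score was highest in control 2 for 20 and lowest in mutant 2 for 14. By fold over the library average the highest was mutant 1 for 18 and the lowest mutant 2 for 21. The 2 mutants thus stood at opposite ends of the depth-scaled order. The median fold of these regions was 4.10 and 4.35 in the controls and 4.63 and 3.46 in the mutants. The 29 regions held 92.3% to 97.8% of the proximal score in each library and 40.4% to 81.1% of the covered bases.

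Within the proximal part coverage was highest in the first 1 Mb beside the assembled start and fell in the next 1 Mb. From 3.0 to 4.0 Mb islands covered 1.69% and 2.02% of the sequence in the controls and 1.75% and 1.33% in the mutants. From 4.0 to 5.0 Mb they covered 0.398%, 0.974%, 0.680% and 0.279%. Every library lost more than 50% of its coverage between these steps. The median of the 4 libraries then fell to 0.206% from 5.0 to 6.0 Mb and 0.104% from 6.0 to 7.0 Mb, where mutant 2 had 0 islands, and stood at 0.481% from 7.0 to 8.0 Mb. The numbers of islands followed the same course, with 25 to 49 in the first step, 5 to 30 in the next, 5 to 12, 0 to 10 and 9 to 28.

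The joined regions numbered 50, 32, 14, 10 and 31 in the 5 steps, and those with an island in all 4 libraries 18, 4, 3, 0 and 4. The first step held 63.2%, 45.6%, 51.1% and 64.4% of the proximal covered bases. It held 91.8% to 95.8% of the proximal score. Score per covered kb was 206, 294, 246 and 293 there, against 13.6 to 38.0 in the 4 steps that followed. Without the chromosome 11 region and the 3 regions of chromosome 9 the first step still had 35.2, 44.1, 40.3 and 44.5 per kb and covered 1.11%, 1.44%, 1.17% and 0.752%. Without the highest-scoring region of each chromosome, which leaves 2 of the chromosome 9 regions in place, it had 61.4, 54.4, 59.7 and 106 per kb and covered 0.879%, 1.22%, 0.974% and 0.572%.

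**Figure D3:**
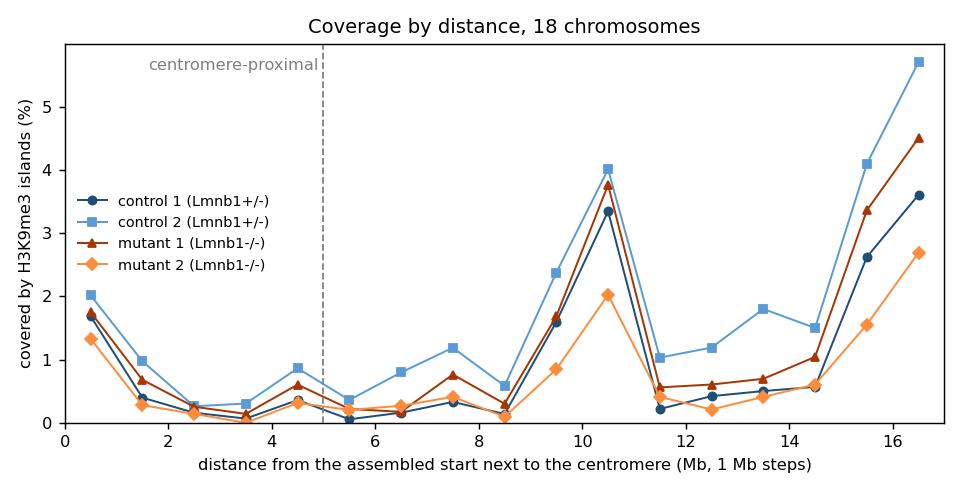
Percent of sequence covered by H3K9me3 islands in 1 Mb steps (vertical axis) against distance in Mb from the assembled start beside the centromere, averaged over 18 chromosomes, with 1 line for each library. The dashed line at 5 Mb marks the limit of the proximal part. Coverage is 1.33% to 2.02% in the first step and 0% to 0.304% in the fourth, and steps further out reach higher values.

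Beyond the limit the coverage rose again in places. The median over the 4 libraries was 0.212% from 8 to 9 Mb, 1.64% from 12 to 13 Mb, 3.56% from 13 to 14 Mb and 4.06% from 19 to 20 Mb. The first proximal step was thus a local and not an overall maximum along the chromosomes.

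Proximal islands were sparser than distal ones but carried a higher score per covered kb. Density was 0.600, 1.43, 0.778 and 0.500 islands per Mb, against 0.815, 2.33, 1.18 and 0.804 in the distal part. Coverage was 0.534%, 0.884%, 0.686% and 0.412%, against 0.853%, 1.61%, 1.20% and 0.745%. Score per covered kb was 137, 146, 134 and 197, against 18.8, 22.8, 20.02 and 19.2. The contrast was smaller as fold over the library average, estimated from these scores: 11.6, 8.43, 11.3 and 11.2, against 3.16, 2.76, 3.27 and 2.65. The proximal value was lower for density and coverage, and higher for score, in each of the 4 libraries.

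The mean log2 ratio of proximal to distal was -0.60 for density, -0.80 for coverage and 2.91 for score per kb, or 1.84 as fold over the library average. An exact two-sided permutation test that flips the sign of each library gave p = 0.125 for each, the smallest p that 4 libraries can give. Without the highest-scoring region of each chromosome in both parts, the log2 ratio was -0.998 for density, -1.40 for coverage and 1.17 for score per kb. Score per kb was then 40.4, 32.6, 33.6 and 67.2 in the proximal part and 17.2, 21.5, 18.5 and 17.0 in the distal part. The removal left 40 of 54, 112 of 129, 56 of 70 and 28 of 45 proximal islands. In the distal part it left 1745 of 1771, 5026 of 5056, 2528 of 2555 and 1717 of 1748. It thus took a larger share of the proximal part, and the lower ratios of density and coverage follow from that. Without the chromosome 11 region and the 3 chromosome 9 regions the log2 ratio of score per kb was 0.54, and without the first 1 Mb step it was -0.03, with an exact permutation p = 0.875 over the 4 libraries. The higher score per kb was thus found in the first step, and from 4.0 to 8.0 Mb the values were 17.2, 22.1, 17.5 and 23.2.

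**Figure D4:**
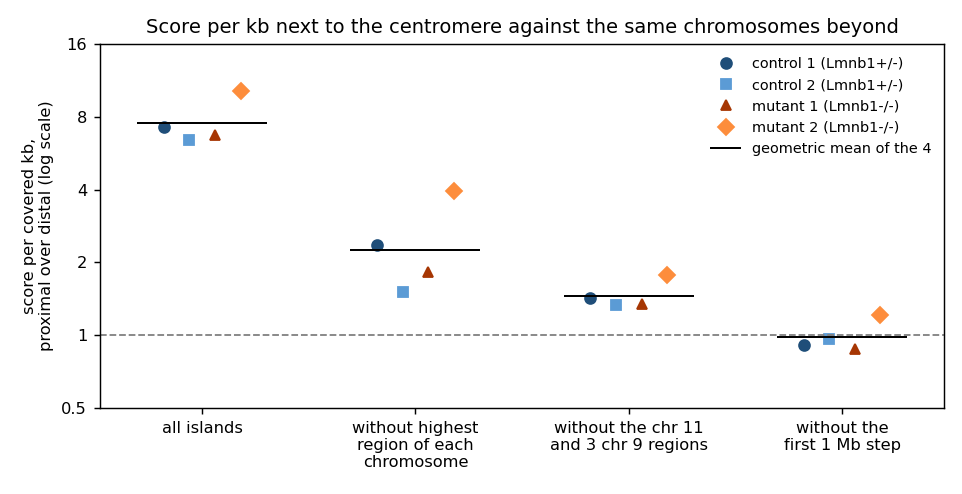
Ratio of proximal to distal score per covered kb (log axis) in each of the 4 libraries, for all islands and after leaving out the highest-scoring region of each chromosome, the chromosome 11 and 3 chromosome 9 regions, or the first 1 Mb step. The line is the geometric mean of the 4 libraries and the dashed line marks equality. The ratio is 6.40 to 10.2 for all islands and its log2 mean is -0.03 without the first step.

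A typical proximal island differed far less from a distal one than the totals did. The median island scored 17.9, 22.4, 19.5 and 24.5 per kb, against distal medians of 15.6, 19.5, 16.8 and 15.9. Of the proximal islands 64.8%, 62.0%, 62.9% and 82.2% lay above the distal median of their library.

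The gap in coverage was smaller by the median window than by the mean, and distal coverage was spread unevenly. Cutting the same chromosomes into windows of 5 Mb gave 18 proximal and 426 distal windows. The median proximal window was covered to 0.334%, 0.618%, 0.348% and 0.210%. The median distal window was covered to 0.184%, 0.648%, 0.352% and 0.228%. By this median the proximal part was slightly lower in 3 libraries and higher in control 1, although by the mean it was lower in all 4. With the distal part taken as 1 value per chromosome, its median was 0.577%, 1.37%, 0.993% and 0.602%, above the proximal median in all 4 libraries. The 5% of distal windows with the highest coverage held 39.5% to 56.9% of the distal covered bases, and single windows reached 26.6% to 36.4%, against at most 2.01% to 3.00% in a proximal window. In the first 1 Mb an island was present on 55.6% to 83.3% of chromosomes, and in 26.6% to 65.6% of distal 1 Mb windows.

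The chromosomes differed widely. Chromosome 16 had the highest mean proximal coverage, 2.76%, 3.00%, 3.00% and 1.78%, against 0.584%, 1.69%, 1.26% and 0.656% in its distal part. Chromosome 11 followed with 1.88%, 2.18%, 1.96% and 2.01%, against 0.969%, 1.40%, 1.20% and 0.617%. On chromosome 3 the proximal values were 0.552%, 1.68%, 1.16% and 0.412%, above 0.309%, 0.927%, 0.503% and 0.398%. These 3 chromosomes had higher proximal than distal coverage in all 4 libraries.

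Chromosome 9, in spite of its strong regions, was covered to 1.13%, 2.01%, 1.87% and 0.964% in its proximal part and to 2.32%, 2.85%, 2.64% and 1.55% in its distal part. It was one of 12 chromosomes with lower proximal coverage in every library, and the other 3 (chromosomes 4, 8 and 13) differed between libraries. Chromosomes 16, 11, 9 and 3 together held 65.8%, 55.8%, 64.7% and 69.6% of the proximal covered bases. Score per kb was higher in the proximal part on 10, 14, 11 and 13 chromosomes and lower on 3, 2, 3 and 3, and the rest had no proximal island.

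**Figure D5:**
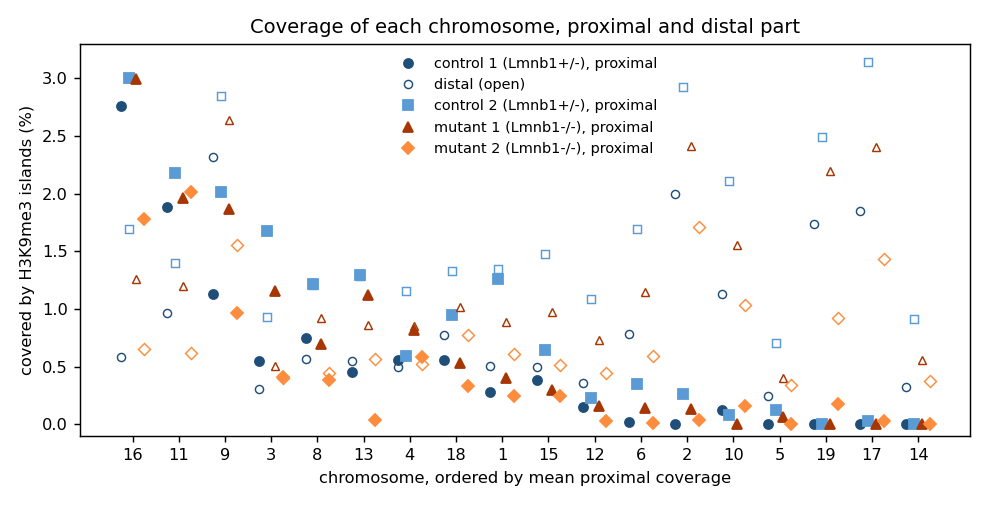
Percent of sequence covered by H3K9me3 islands in the proximal part (filled markers) and distal part (open markers of the same shape and colour) of each of 18 chromosomes, ordered by mean proximal coverage. Filled markers lie above open ones in all 4 libraries on chromosomes 16, 11 and 3, and chromosome 14 has no proximal island.

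Some neighbouring regions were close together. Joining members less than 100 kb apart gave 93 groups, of which 75 held a single member. The other 18 groups held 62 of the 137 members, and the distal part was not grouped in this way. The largest, chr16:3581801-3827400, held 10 members over 245.6 kb, and islands covered 31.0% and 28.8% of it in the controls and 31.3% and 14.8% in the mutants. Coverage was alike in the first 3 libraries and lower in mutant 2. The next, chr13:7515401-7713000, held 5 members over 197.6 kb and was covered to 10.1%, 24.3%, 16.3% and 0% in the same order. No member of that group had an island in mutant 2.

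The study asked whether the loss of lamin B1, a protein of the nuclear lamina that lines the inner nuclear membrane, altered the distribution of H3K9me3. With 2 mice per genotype the exact permutation test over the 4 libraries cannot give a p below 0.333. Density was 1.02 ± 0.589 islands per Mb in controls and 0.639 ± 0.196 in mutants (SD, n = 2 each), a log2 ratio of -0.67 (exact two-sided permutation p = 0.667). The difference lay within the spread between replicates, and its direction depended on control 2. Mutant 1 stood above its littermate by 0.37 on the log2 scale and mutant 2 below its own by -1.52, and without control 2 the log2 ratio was 0.09.

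Coverage behaved likewise, with 0.709% ± 0.247 in controls and 0.549% ± 0.193 in mutants (SD, n = 2 each, log2 ratio -0.37, exact permutation p = 0.667). The log2 ratio was 0.36 within the first pair and -1.10 within the second, and 0.04 without control 2. By chromosome, mutant 1 was above its littermate on 11 and below on 4, whereas mutant 2 was above on 2 and below on 14. As a ratio to the distal part, coverage was 0.626 and 0.550 in the controls and 0.569 and 0.554 in the mutants, a log2 difference of -0.07 (exact permutation p = 1). The direction turned, to 0.03, without control 1. The difference between genotypes in the proximal part was thus close to that in the distal part, where coverage was 1.23% ± 0.533 in controls and 0.974% ± 0.325 in mutants (SD, n = 2 each).

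Score per covered kb was 141 ± 6.69 in controls and 166 ± 44.3 in mutants (SD, n = 2 each), a log2 ratio of 0.23 (exact permutation p = 1). Mutant 2 alone was high by score, and without it the log2 ratio was -0.07. Scaled by depth, as fold over the library average, the values were 11.6, 8.43, 11.3 and 11.2, a log2 ratio of 0.17. On that scale mutant 2 lay near control 1 and mutant 1, and control 2 was lowest. The proximal share of all score on these chromosomes was 15.8% and 12.7% in the controls and 13.7% and 19.02% in the mutants, a log2 ratio of 0.19 (exact permutation p = 0.667), which was -0.06 without mutant 2. The groups overlapped in both measures.

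Single regions were compared in a limma fit over all 2801 regions of the whole series (chromosomes 7, X and Y and the members included) called in at least 2 libraries, on log2(score + 64.7) after each library was shifted to a common median. Of the 137 members 74 entered this fit. None passed an adjusted p of 0.05 in limma (smallest 0.814), where 0.0357% of all tested regions did. An unadjusted p under 0.05 was reached by 2 members, both lower in mutants and without an island in either mutant, against 5.82% of all tested regions. Both mutants lay above both controls for 7 members, against 11.5% of all tested regions, and below for 11 members, against 17.2%. The 11 included 5 members with islands in both controls and neither mutant, which entered the fit through the controls alone. Others in both counts lacked an island in a single library, which the fit set at the pseudocount. These counts turned with the pseudocount, to 19 above and 5 below at 10 times the pseudocount and 5 above and 13 below at a pseudocount of 1. The median log2 difference of mutants from controls was 0.04 over the members tested and 0.08 over all regions tested.

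The member with the smallest p, chr9:4393001-4401200, scored 85.8 and 148 in the controls and had no island in the mutants, a log2 difference of -1.28 (SE 0.446, limma unadjusted p = 0.0232, adjusted p = 0.814). The second, chr8:4668801-4674000, scored 83.8 and 107 in the controls and had no island in the mutants, a log2 difference of -1.12 (SE 0.455, limma unadjusted p = 0.0428, adjusted p = 0.832). The next 3 by p, chr8:3121601-3127200, chr1:5155201-5160600 and chr13:7676001-7682200, also had islands in both controls and neither mutant, with scores of 75.5 to 84.6. All 5 entered the fit through the controls alone. They were the only proximal regions with islands in both controls and neither mutant, 3.65% of the members against 3.03% (159 regions) of the distal regions, a share near the background. No member had islands in both mutants and neither control, against 0.591% (31 regions) of the distal regions. An absent island means that no enrichment passed the threshold, not that the mark was absent.

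The 29 regions with an island in all 4 libraries were split evenly, 14 higher and 15 lower in mutants on the scaled log2 scale, with differences from -0.74 to 0.63. The lowest was chr16:3581801-3605400 and the highest chr12:3109001-3110200, given above. No region of the 29 reached an unadjusted p of 0.05, and the standard errors of the 74 members tested were 0.421 to 0.788 on the log2 scale, which limits the size of change that could be detected.

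The libraries shared a little more of their covered sequence in the proximal than in the distal part. Over the 6 pairs of libraries, 46.5% ± 6.65 (SD, range 36.4% to 53.9%) of the bases covered by either were covered by both, against 40.3% ± 5.58 (range 32.0% to 48.1%) in the distal part. Each pair shared more in the proximal part, but pairs have libraries in common and are not independent and no test was made. Pairs of the same genotype shared 43.6% and pairs of different genotypes 47.9%. Without the highest-scoring region of each chromosome the proximal mean was 32.7%, below the 40.3% of the distal part with all its regions. Each pair then shared less than in the distal part. Those regions were picked by the score summed over the 4 libraries and were left out of the proximal part alone. The comparison therefore cannot decide whether the direction depended on them.

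H3K4me3, a mark of active promoters, was called with MACS in control 1 and mutant 1, 1 library per genotype, so no test between genotypes was possible. Peaks were about as dense in the proximal part as in the distal part, 6.47 per Mb against 6.16 in control 1 and 7.23 against 7.10 in mutant 1. Of the 137 members 18 (13.1%) overlapped a peak in control 1 and 17 (12.4%) in mutant 1, against 1.81% and 2.63% of distal regions. These shares were not tested, since regions of 1 mouse are not replicates. Of the 29 regions called in all 4 H3K9me3 libraries 15 overlapped a peak in each H3K4me3 library, while of the other 108 members 3 did in control 1 and 2 in mutant 1.

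The 4 regions of highest score lay in large part under such peaks. H3K4me3 peaks covered 48.0 kb of the chromosome 11 region in control 1 and 60.3 kb in mutant 1, or 65.6% and 82.4% of its length. They covered 59.4% and 52.7% of chr9:2999801-3008600, and 69.9% and 64.0% of chr9:3015201-3032800, in the same order. On chr9:3034001-3039000 the shares were lower, 39.5% and 51.1%. On chr18:3003801-3011400 the shares were 70.7% and 80.6%. The chromosome 11 region and the 3 chromosome 9 regions were thus called enriched with both antibodies over 39.5% to 82.4% of their length. Reads of both marks came from the same sorted cells, and no input library was used, so enrichment of a mark and an excess of reads that does not depend on the antibody cannot be told apart here.

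Among members of lower score the cover was as high in places. The region chr17:3081401-3083000 lay 86.3% and 71.9% under a peak in control 1 and mutant 1. Of the others, chr12:3109001-3110200 lay 41.0% and 45.3% under a peak, chr6:3151201-3152200 41.3% and 35.7%, and chr4:3016401-3018800 88.5% and 62.3%. The region chr19:5794201-5802800, called for H3K9me3 in mutant 2 alone, lay 74.5% and 76.2% under H3K4me3 peaks in the first mouse of each genotype. Of the 17 members under a peak in both H3K4me3 libraries 15 started below 4.0 Mb. Without the chromosome 11 region and the 3 chromosome 9 regions, 14 of 133 members (10.5%) in control 1 and 13 (9.77%) in mutant 1 overlapped a peak, and peaks covered 3.11% and 2.64% of their length, against 0.253% and 0.311% of the distal regions.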

How the data were processed

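Reads of 50 bp were mapped by the authors to mm9 with bowtie, keeping unique alignments with at most 2 mismatches. The deposited H3K9me3 values are island scores that the authors made with SICER in each library separately (windows of 200 bp, gaps of 600 bp, E-value 0.01), and the deposited H3K4me3 peaks carry MACS scores (p threshold 1e-05). The authors' own test used read counts, which are not used here. Islands were assigned by midpoint, the proximal length was counted from 3.0 Mb, and islands overlapping between libraries were joined. Depth was worked out as the average reads per window at which islands of 2 windows give whole read numbers (5 of 5, 10 of 10, 11 of 11 and 10 of 10 islands in control 1, control 2, mutant 1 and mutant 2, tolerance 1e-05).

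Groups were compared as log2 ratios of means with exact permutation tests. Regions were compared with limma 3.58.1 in R 4.3.3 (lmFit and eBayes) on log2(score + 64.7), the pseudocount being the smallest island score, with Benjamini-Hochberg adjustment. Differences on this scale understate changes of low scores. Intervals and permutation tests were computed in Python 3.11.15 (pandas 2.3.3, numpy 2.4.6, scipy 1.17.1), with plots from matplotlib 3.10.9. The interval measures and the limma step were tested on simulated data. Regions were named if they had one of the 10 highest lowest-of-4 scores, the highest score of their chromosome, one of the 5 smallest p-values or one of the 5 longest spans. The members and lists were chosen with earlier results of these data known. The reference at hand is of another build than mm9, so no gene annotation or sequence was used.

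Littermates share a replicate number, which pairs the samples by design. The deviations of littermates from their genotype means correlated at -0.0167 over the 2801 regions and -0.135 over the 74 members tested, where regions are not independent. Alternatives were stricter or equal numbers of islands, a limit of 6 Mb, clipping at the limit, other lengths, pseudocounts, filters and scalings, the replicate block, and leaving out each library. Leaving out the chromosome 11 and 3 chromosome 9 regions or the first 1 Mb step, the fold over the library average and the 5 Mb windows were added after seeing the data.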

Additional observations from a re-analysis of the deposited data

How the results depend on the processing

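Of 127 values recomputed under other settings, 107 kept their direction and their side of the threshold, or for counts stayed within 1.5 times, 10 reversed and 10 counts moved further. The direction of the proximal to distal log2 ratio of density and coverage held under every setting among these values. That of score per kb held under every setting but 1, chosen after seeing the data: without the first 1 Mb step it reversed to -0.0271. Leaving out the highest-scoring region of each chromosome took a larger share of the proximal than of the distal islands. The density and coverage ratios kept under that setting say nothing about how firm those results are. The median 5 Mb window was not among these values. By it, coverage in control 1 turned, to 0.334% in the proximal and 0.184% in the distal part. In control 2, mutant 1 and mutant 2 the proximal median stayed lower, 0.618% against 0.648%, 0.348% against 0.352% and 0.210% against 0.228%. Of the log2 ratios of mutants to controls, score per kb reversed to -0.0759 with islands scoring at least the pooled median and to -0.13 with equal numbers of islands. The proximal to distal ratio of coverage reversed to 0.12 with the stricter islands, and the share of score to -0.0527 without the first 1 Mb step. Leaving out each library in turn gave -1.17 to 0.0906 for density, -0.78 to 0.0406 for coverage, -0.0744 to 0.48 for score per kb, -0.16 to 0.0305 for the ratio of coverage and -0.0641 to 0.41 for the share of score. The cause of these reversals was not tested, and none of these tests could pass the threshold at this sample size. Their side of the threshold was thus fixed beforehand. Clipping at 8.0 Mb repeated the main values, since no member crossed that limit. Counting length from position 0 left the log2 ratios of mutants to controls unchanged by construction. Values kept under these 2 settings say nothing about how firm the results are.

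With the replicate block, which pairs littermates, the log2 ratios were -0.57 for density, -0.37 for coverage, 0.20 for score per kb, -0.06 for the ratio of coverage and 0.18 for the share of score. In the limma fit with the block 0 members passed an adjusted p of 0.05 and 1 an unadjusted p of 0.05. Of all 2801 regions 151 passed the unadjusted threshold with the block and 163 without it.

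With all libraries in, the count of members past an adjusted p of 0.05 was 0 in limma under every setting but a pseudocount of 1. That setting gave 5 of 74 members (smallest adjusted p 0.0441), where 199 of all 2801 regions passed. With that pseudocount a region without an island in a library sits far below the lowest island score. Members past an unadjusted p of 0.05 numbered 5 with a pseudocount of 1, 5 without scaling between libraries, 0 among regions in at least 3 libraries, 0 with the stricter islands, and 0 to 15 when each library was left out, with 15 without mutant 1, 4 without mutant 2 and 0 without either control. Without scaling the members' median log2 difference was -0.15 and that of all regions -0.11, a shift of all regions.

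Of the 63 proximal regions called once 53 came from control 2, the deepest library, and 2 from mutant 2, the next deepest. Whether depth set these numbers was not tested. There are no counts, so no counting interval is given.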

Other observations

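Chromosomes 7, X and Y hold no members and entered only the limma fit over the whole series. Below 8.0 Mb chromosome 7 had 9 and 17 islands in the controls and 8 and 1 in the mutants. Chromosome X had 2, 0, 2 and 4 in the same order.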
